A study of Mus musculus with 93 samples.

Results

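The mitochondrial genome transcripts are the 37 genes of the mouse mitochondrial chromosome, chosen as every entry of the deposited expression table whose gene name in the annotation starts with mt-, out of 32975 entries in all. They are 13 mRNAs, 2 ribosomal RNAs (rRNAs) and 22 transfer RNAs (tRNAs), and no measured value was used to choose them. The study followed olfactory sensory neurons of C57BL/6 mice through their development in the olfactory epithelium, with each cell picked by hand and its cDNA primed with oligo(dT), amplified by PCR and made into a library with a kit for DNA that does not mark strand. The 85 cells comprised 11 Progenitor cells, 9 Precursor cells, 27 cells of the Early Immature Neuron stage, 13 of the Late Immature Neuron stage and 25 Mature Neuron cells, and 8 of them had a repeat library, which is described on its own and enters no stage value. The labels used here give no genotype other than the strain, no treatment and no age. The labels name no animal, so a stage counts as 1 sample here: differences between stages are given with the spread over cells and no test, and no replicate check on them was possible.

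The mitochondrial genome is a small circle copied into RNA from both strands as long precursor transcripts that run through many genes. The tRNA genes lie between the mRNAs and rRNAs and are cut out to release them, and most of the released mRNAs then receive a short poly(A) tail. The mRNAs encode the core of respiratory complexes I, III and IV and of the ATP synthase, complex V, while the remaining subunits come from the nucleus. Neurons depend on mitochondria for much of the ATP that drives ion pumping, and in olfactory neurons many lie in the dendrite below the knob that bears the cilia.

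The labels of the neuron stages were checked against known genes. Omp, the olfactory marker protein of mature neurons, had a median of 6257 FPKM in Mature Neuron cells and 4584 FPKM at the Late Immature Neuron stage. At the Early Immature Neuron stage its median was 49.4 FPKM and its highest value 6224 FPKM. Gap43, a growth protein of immature neurons, had its highest median, 360 FPKM, at the Early Immature Neuron stage. RNA of genes known from other cell types was present too. S100a9 of neutrophils was at or above 1 FPKM in 8 of 11 Progenitor cells. A list of 8 genes of sustentacular cells, the supporting cells of the epithelium, summed to 500 FPKM or more in 16 of 85 cells. Of these 16, 12 were Mature Neuron cells. In Mature Neuron cells Cbr2 of this list had a median of 210 FPKM, where the list sum had 284 FPKM. Cyp2g1 of the same list had a median of 1.14 FPKM there and reached 1 FPKM in 13 of 25 cells. FPKM is fragments per kilobase of transcript per 1000000 mapped fragments. Cell numbers fell into 4 ranges that follow the stages only in part: D168 to D205 held 8 of 11 Progenitor cells and no Mature Neuron cell, D213 to D274 held 16 of 25 Mature Neuron cells, and D316 to D434 alone held cells of all 5 stages. The labels do not say what the numbers mean. The 8 Progenitor cells with S100a9 were all from D168 to D205. In D330, D337 and D393, the Progenitor cells from D316 to D434, S100a9 was 0 FPKM.

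Sequences of the genes on which the results turn are shown first, on the mm10 build, 5′ to 3′ along each gene's own strand, from GENCODE transcripts of the same coordinates. The tRNA gene with the highest values, mt-Ts1 (serine), lies on the minus strand at chrM:6870-6938, directly behind the plus-strand mRNA mt-Co1, and the capitals mark the 3 bases that the annotations of both genes share.
mt-Ts1: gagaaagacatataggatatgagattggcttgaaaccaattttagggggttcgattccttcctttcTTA
mt-Co1, last 30 bases (chrM:6843-6872): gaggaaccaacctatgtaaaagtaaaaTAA

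The tRNA genes next in level were mt-Te (glutamate), on the minus strand at chrM:14071-14139 between mt-Nd6 and mt-Cytb, and mt-Tl1 (leucine), on the plus strand at chrM:2676-2750 between mt-Rnr2 and mt-Nd1. They share no base with a neighbour.
mt-Te: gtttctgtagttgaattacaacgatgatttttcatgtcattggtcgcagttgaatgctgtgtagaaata
mt-Tl1: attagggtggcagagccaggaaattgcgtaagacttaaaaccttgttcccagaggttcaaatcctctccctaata

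Among the mRNAs, mt-Atp8 and mt-Atp6 are made as 1 molecule with overlapping reading frames, as are mt-Nd4l and mt-Nd4. The mt-Atp8 gene spans chrM:7766-7969 on the plus strand, and the 43 capitals are the bases it shares with mt-Atp6. The last bases of mt-Nd4l (chrM:10144-10173) and the first of mt-Nd4 (chrM:10167-10196) share 7, in capitals. A fragment over these shared bases can be assigned to either gene.
mt-Atp8: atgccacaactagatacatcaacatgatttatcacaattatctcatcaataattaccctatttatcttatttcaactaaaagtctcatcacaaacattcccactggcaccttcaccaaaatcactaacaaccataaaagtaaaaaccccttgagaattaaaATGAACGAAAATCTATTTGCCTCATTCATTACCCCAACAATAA
mt-Nd4l, last 30 bases: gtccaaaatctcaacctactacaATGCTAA
mt-Nd4, first 30 bases: ATGCTAAaaattattcttccctcactaatg

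Mitochondrial genes took about 50% of all FPKM in these cells, with a median of 50.5% over the 85 cells and a range of 10.3% to 92.0%. By stage the median share was 44.4% in Progenitor cells (range 25.4% to 66.9%, SD 12.96, n = 11), 37.4% in Precursor cells (34.3% to 78.6%, SD 15.3, n = 9) and 44.1% at the Early Immature Neuron stage (10.3% to 85.2%, SD 14.9, n = 27). It was 55.1% at the Late Immature Neuron stage (26.04% to 92.0%, SD 21.1, n = 13) and 67.0% in Mature Neuron cells (20.6% to 90.04%, SD 18.5, n = 25). The ranges of all 5 stages overlapped, and the median of Mature Neuron cells stood more than 1 SD over cells above those of the first 3 stages.

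**Figure D1:**
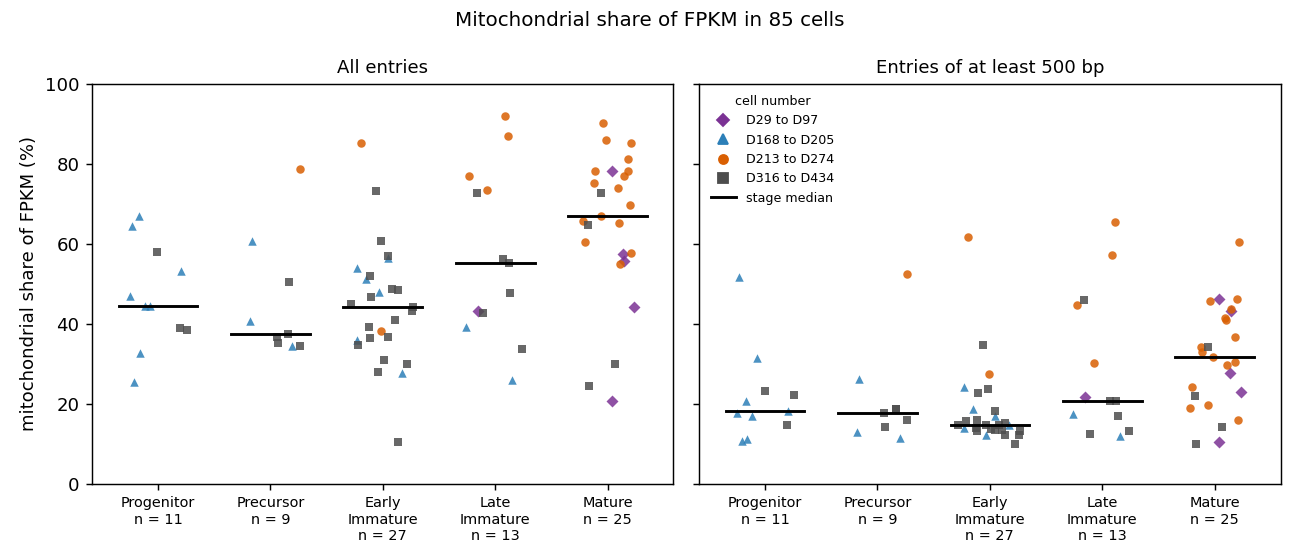
Mitochondrial share of summed FPKM (%) in each of the 85 cells by stage, over all entries (left) and over entries of at least 500 bp (right). Symbols mark the range of cell numbers and lines the stage medians: Mature Neuron cells have the highest median in both panels, 67.0% and 31.7%, but most cells above 40% on the right are from D213 to D274.

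Most of this FPKM stood on tRNA genes. The tRNAs made up a median of 74.9% of mitochondrial FPKM in Progenitor cells, 73.8% in Precursor cells, 79.3% at the Early Immature Neuron stage, 76.0% at the Late Immature Neuron stage and 81.05% in Mature Neuron cells, with the mRNAs at 24.9%, 25.96%, 20.2%, 23.8% and 18.7% in the same order. A single tRNA gene, mt-Ts1, had a median of 20.1% of all FPKM in Progenitor cells, 22.4% in Precursor cells, 24.7% at the Early Immature Neuron stage, 30.2% at the Late Immature Neuron stage and 41.9% in Mature Neuron cells. It held more than 50% of tRNA FPKM in 82 of 85 cells, and mt-Ts1, mt-Te and mt-Tl1 together held a median of 92.3% (63.5% to 100%).

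Each of these short genes gives a large FPKM from few fragments. Over libraries, the lowest value above 0 had a median of 1132 FPKM among entries over 60 and up to 80 bp long, 23.7 FPKM among those over 120 and up to 150 bp, and 0.229 FPKM among those over 800 and up to 1000 bp. The tRNA genes are 59 to 75 bp long, and their lowest value above 0 in any cell was 983 FPKM. A share of FPKM thus depends on the length by which a gene is divided. With entries under 200 bp left out the mitochondrial share was 20.2% in Progenitor cells, 19.8% in Precursor cells, 16.4% at the Early Immature Neuron stage, 23.1% at the Late Immature Neuron stage and 39.1% in Mature Neuron cells.

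Which tRNA genes were seen differed by strand. The 8 minus-strand tRNA genes were above 0 in 51.0% of 680 gene and cell pairs, against 15.6% of 1190 pairs for the 14 plus-strand ones. A minus-strand tRNA gene was above 0 in a median of 36.5 cells, from 11 for mt-Tq (glutamine) to 85 for mt-Ts1, and a plus-strand one in a median of 7.5 cells, from 1 for mt-Th (histidine) to 71 for mt-Tl1. Genes of 1 cell share a library, so these pairs are not independent and no test was made. Since the libraries do not mark strand, fragments of a minus-strand tRNA gene cannot be told apart from fragments of plus-strand RNA that runs through the same bases; in mammals the mt-Co1 mRNA is known to run on past its stop codon into the complement of the tRNA gene behind it, here mt-Ts1.

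**Figure D2:**
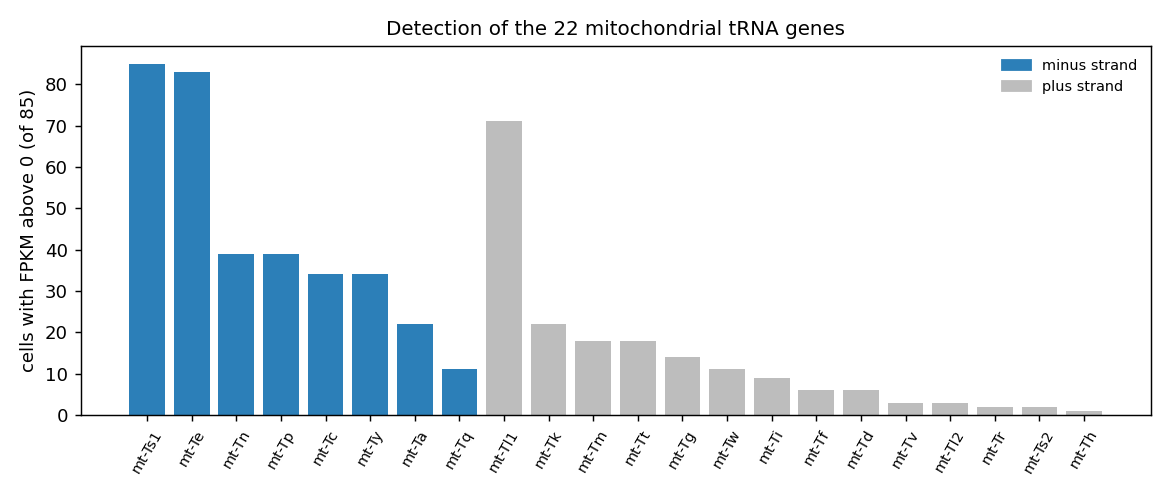
Number of the 85 cells with an FPKM above 0 (bar height) for each of the 22 mitochondrial tRNA genes, minus-strand genes on the left and plus-strand genes on the right. Outside mt-Tl1, no plus-strand gene reaches more than 22 cells, and mt-Ts1 and mt-Te on the minus strand reach 85 and 83.

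Levels of mt-Ts1 ran from 74509 FPKM in the Late Immature Neuron cell D199 to 5.95e+06 FPKM in the Late Immature Neuron cell D250. The ratio of mt-Ts1 to mt-Co1 FPKM had medians of 19.1 in Progenitor cells, 20.5 in Precursor cells, 23.2 at the Early Immature Neuron stage, 19.5 at the Late Immature Neuron stage and 31.9 in Mature Neuron cells, with a range over all cells of 4.62 to 126. The mt-Te level had medians of 26864 FPKM in Progenitor cells, 26340 in Precursor cells, 26110 at the Early Immature Neuron stage, 35398 at the Late Immature Neuron stage and 96248 in Mature Neuron cells. It was 0 in 2 cells, both Progenitor, and its range within every stage covered the medians of the other stages.

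The level of mt-Tl1 had medians of 3347 FPKM in Progenitor cells, 2709 in Precursor cells, 4883 at the Early Immature Neuron stage, 24479 at the Late Immature Neuron stage and 84257 in Mature Neuron cells. It was above 0 in 7 of 11, 8 of 9, 21 of 27, 12 of 13 and 23 of 25 cells of these stages. Its median was 86982 FPKM in the 23 cells D213 to D274 and 3695 FPKM in the 37 cells D316 to D434. Within that second range its medians were 3460 FPKM in Progenitor cells, 1159 in Precursor cells, 4290 at the Early Immature Neuron stage, 15593 at the Late Immature Neuron stage and 2350 in Mature Neuron cells. In that range the Late Immature Neuron stage was highest, and Mature Neuron cells were not high.

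The other tRNA genes were each seen in a minority of the cells. On the minus strand, mt-Tn (asparagine) was above 0 in 39 cells, mt-Tp (proline) in 39, mt-Tc (cysteine) in 34, mt-Ty (tyrosine) in 34, mt-Ta (alanine) in 22 and mt-Tq in 11. On the plus strand, mt-Tk (lysine) was above 0 in 22 cells, mt-Tm and mt-Tt in 18 each, mt-Tg in 14, mt-Tw in 11, mt-Ti in 9, mt-Tf and mt-Td in 6 each, mt-Tv and mt-Tl2 in 3 each, mt-Tr and mt-Ts2 in 2 each and mt-Th in 1. Of these, mt-Tn had a median above 0 in Progenitor cells (7212 FPKM) and at the Early Immature Neuron stage (2867), mt-Tc in Progenitor (17558) and Precursor cells (2142), mt-Tk and mt-Tt in Progenitor cells (3260 and 3302), and mt-Tp in Precursor cells (2452) and at the Late Immature Neuron stage (3054). The median of mt-Ty was above 0 in Progenitor cells (2853 FPKM), in Precursor cells (1997) and at the Late Immature Neuron stage (7378). Medians above 0 beyond the top 3 tRNA genes were thus found in every stage but the last. Progenitor cells had a median of 9 tRNA genes above 0, Precursor cells 7, Early Immature Neuron cells 5, Late Immature Neuron cells 8 and Mature Neuron cells 6, with 1 to 15 over all cells. Since the lowest value above 0 was 983 FPKM, a 0 for these genes says only that no fragment was assigned.

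The share over entries of at least 500 bp, which holds 10 mRNAs and both rRNAs, avoids the short genes. It had medians of 18.2% in Progenitor cells (range 10.7% to 51.8%, SD 11.5), 17.7% in Precursor cells (11.4% to 52.4%, SD 12.6), 14.7% at the Early Immature Neuron stage (9.93% to 61.6%, SD 10.3), 20.6% at the Late Immature Neuron stage (12.04% to 65.3%, SD 18.1) and 31.7% in Mature Neuron cells (9.93% to 60.4%, SD 12.9). The order of the stages was thus nearly that over all entries, with Mature Neuron cells highest. The ranges again overlapped fully, and neighbouring stages up to Late Immature Neuron differed by less than 1 SD over cells.

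Within ranges of cell numbers the picture was different. Among cells D316 to D434 the medians were 22.1% in Progenitor cells (n = 3), 17.7% in Precursor cells (n = 5), 14.6% at the Early Immature Neuron stage (n = 19), 18.7% at the Late Immature Neuron stage (n = 6) and 18.2% in Mature Neuron cells (n = 4). The 4 Mature Neuron cells there had 9.93%, 14.3%, 22.05% and 34.1%, against 14.7%, 22.1% and 23.2% in the 3 Progenitor cells, so that the later group spanned the earlier one. Among cells D213 to D274, Mature Neuron cells had a lower median, 33.5% (n = 16), than Late Immature Neuron cells, 50.9% (n = 4), which is the opposite of the order over all cells.

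The 1 Precursor cell of that range had 52.4%, and its 2 Early Immature Neuron cells had 27.5% and 61.6%. Among cells D168 to D205 the medians were 17.9% in Progenitor cells (n = 8), 12.8% in Precursor cells (n = 3), 15.8% at the Early Immature Neuron stage (n = 6) and 14.8% at the Late Immature Neuron stage (n = 2). Among cells D29 to D97, 1 Late Immature Neuron cell had 21.8% and 5 Mature Neuron cells had a median of 27.6% (10.5% to 46.1%). Over entries of at least 500 bp, the lead of Mature Neuron cells thus did not hold within the range that has every stage. Over all entries, Mature Neuron cells of that range had 24.4%, 30.03%, 64.6% and 72.6%, against 38.5%, 38.97% and 57.96% in its Progenitor cells. The later group thus again spanned the earlier one. Stage and number range cannot be told apart for most Mature Neuron cells.

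Cells with a high share were concentrated in D213 to D274. Of 15 cells at 40% or more, 11 were from this range, which held 23 of the 85 cells. A sustentacular sum of at least 500 FPKM was found in 9 of the 15, and in 16 of the 85 cells. The highest were the Late Immature Neuron cell D230 with 65.3% and a sustentacular sum of 4889 FPKM, the Early Immature Neuron cell D244 with 61.6% and 3618 FPKM, and the Mature Neuron cell D251 with 60.4% and 1203 FPKM. Among the cells with a sum under 500 FPKM, the Late Immature Neuron cell D250 had 57.2% with 210 FPKM. The Progenitor cell D172 had 51.8% with 495.9 FPKM, just under that level. The Late Immature Neuron cells D343 and D234 had 46.0% with 15.7 FPKM and 44.6% with 199.6 FPKM. The Mature Neuron cells D223 and D232 had 41.5% with 2.38 FPKM and 40.96% with 13.5 FPKM. A list of 9 blood and immune cell genes summed to 638 FPKM in D172, 241 in D250 and 134 in D343. That sum was 0 FPKM in D234, D223 and D232.

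Over the 85 cells, Spearman's rho between the sustentacular sum and the share was 0.39; it was 0.50 in the 23 cells D213 to D274 and -0.05 in the 37 cells D316 to D434. All 8 sustentacular genes reached 1 FPKM in some Early Immature Neuron or Mature Neuron cell, and the summed level ran from 0.0875 to 598 FPKM in Progenitor cells, 0.0644 to 1486 in Precursor cells, 0 to 3618 at the Early Immature Neuron stage, 0.458 to 4889 at the Late Immature Neuron stage and 0 to 2344 in Mature Neuron cells. Without the 16 cells at 500 FPKM or more the share had medians of 19.5%, 16.8%, 14.7%, 20.6% and 29.6% in stage order, so the order of the stages was the same. This level was set after the data were seen, rests on 1 list and keeps cells with sums just under it. Of the 13 Mature Neuron cells kept, 9 were from D213 to D274. The part that RNA of other cell types plays in the share was not tested.

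Depth moved with the share over all cells. The number of fragments that 1 FPKM on a transcript of 1000 bases stands for, read from the steps of low values of 2290 single-exon entries, had medians of 6.13 in Progenitor cells, 6.85 in Precursor cells, 5.70 at the Early Immature Neuron stage, 5.08 at the Late Immature Neuron stage and 4.19 in Mature Neuron cells, with a range of 0.560 to 9.83. Spearman's rho with the share over entries of at least 500 bp was -0.49 over 85 cells and -0.12 over the 37 cells D316 to D434, and Pearson's r was -0.55 and -0.34. For the number of genes at or above 1 FPKM, with stage medians of 3516 to 4779 genes, rho was -0.19 and r was -0.07 over the 85 cells. Summed FPKM per library ran from 528355 to 8.73e+06, and the sum over non-mitochondrial entries of at least 500 bp had stage medians of 339054 to 418246. The part of depth in the result was not tested.

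All 12 mRNAs other than mt-Nd4l, and both rRNAs, were above 0 in all 85 cells. FPKM is a level per length, yet mt-Atp8 and mt-Atp6, read from the same molecule, differed in it, and so did mt-Nd4l and mt-Nd4. The order below is therefore one of FPKM and need not be that of RNA amounts. Over the 85 cells the median was highest for mt-Atp6 with 19075 FPKM. After it came mt-Co3 with 14817, mt-Co2 with 14579, mt-Atp8 with 13636 and mt-Co1 with 13315. Next came mt-Cytb with 7972, mt-Nd1 with 6168, mt-Nd4 with 4252, mt-Nd2 with 3974, mt-Rnr2 with 1669, mt-Nd3 with 1653, mt-Nd6 with 1585, mt-Nd5 with 894 and mt-Rnr1 with 327 FPKM. The step from mt-Co1 to mt-Cytb held in 84 of 85 cells, that from mt-Atp6 to mt-Co3 in 77 and that from mt-Nd2 to mt-Rnr2 in 80. Neighbours that did not keep their order were mt-Co3 over mt-Co2 (44 of 85 cells), mt-Co2 over mt-Atp8 (36), mt-Atp8 over mt-Co1 (46), mt-Rnr2 over mt-Nd3 (32) and mt-Nd3 over mt-Nd6 (46). In FPKM, the mRNAs of cytochrome c oxidase and ATP synthase thus stood above those of complexes III and I.

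**Figure D3:**
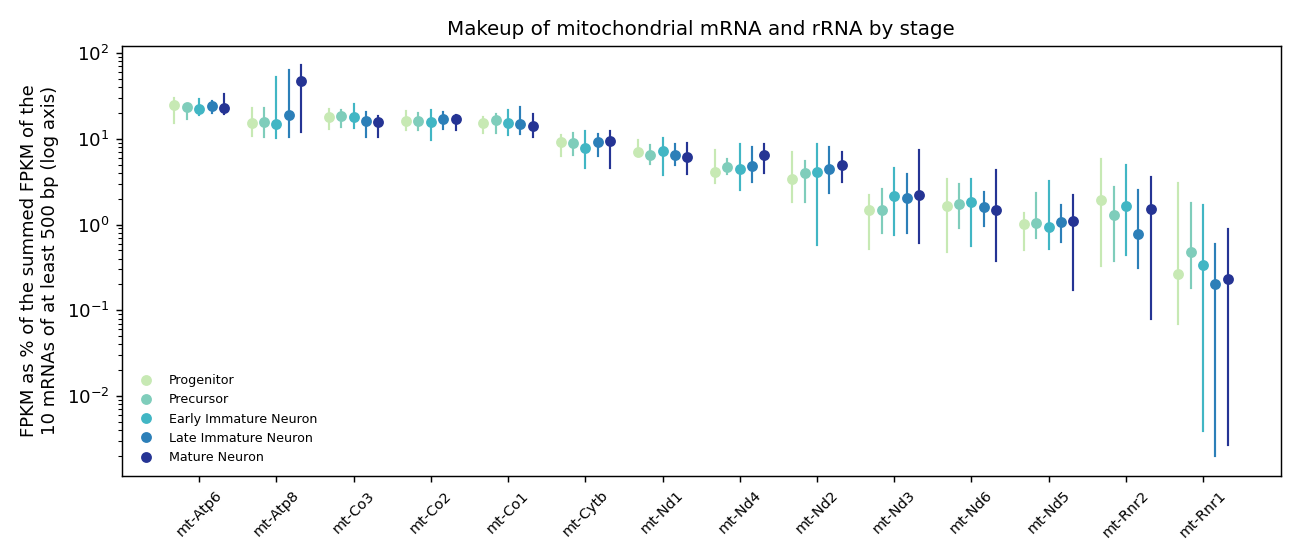
FPKM of 12 mitochondrial mRNAs and both rRNAs as a percentage of the summed FPKM of the 10 mRNAs of at least 500 bp (log axis), by stage from Progenitor to Mature Neuron, with points at the median over cells and lines from the lowest to the highest cell. The mt-Co1, mt-Co2, mt-Co3 and mt-Atp6 medians stay at 14.2% to 25.03% in every stage, mt-Atp8 stands at 47.2% in Mature Neuron cells, and the lines of mt-Rnr1 span more than those of any mRNA.

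Among the mRNAs of at least 500 bp, the makeup by complex differed little between stages. Complex IV, cytochrome c oxidase, made up a median of 48.2% of their FPKM in Progenitor cells, 50.9% in Precursor cells, 50.2% at the Early Immature Neuron stage, 47.7% at the Late Immature Neuron stage and 46.5% in Mature Neuron cells (SD 2.49 to 3.39). Complex V, here mt-Atp6 alone, made up 25.03%, 23.3%, 22.3%, 24.3% and 23.1% in the same order (SD 2.01 to 4.15). Complex I, the NADH dehydrogenase, made up 17.6%, 18.5%, 19.05%, 18.9% and 19.8% (SD 1.84 to 2.92), and complex III, here mt-Cytb alone, made up 9.26%, 8.85%, 7.90%, 9.29% and 9.30% (SD 1.23 to 1.93). Medians of neighbouring stages differed by about 1 SD over cells at most in each complex.

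The 3 subunits of complex IV that carry its catalytic core held similar parts of this sum. The median percentage of mt-Co1 was 15.1% in Progenitor cells, 16.7% in Precursor cells, 15.4% at the Early Immature Neuron stage, 14.9% at the Late Immature Neuron stage and 14.2% in Mature Neuron cells. That of mt-Co2 was 16.03%, 16.05%, 15.8%, 17.1% and 17.1%, and that of mt-Co3 was 17.8%, 18.6%, 18.2%, 15.98% and 15.8%, in the same order. The lowest and highest cells of each stage overlapped those of every other stage for all 3 genes.

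In FPKM, mt-Co1 had medians of 11513 in Progenitor cells (range 5940 to 81042), 10601 in Precursor cells (8854 to 39408), 10190 at the Early Immature Neuron stage (6598 to 49334), 13315 at the Late Immature Neuron stage (7025 to 89504) and 29609 in Mature Neuron cells (7555 to 80532). For mt-Co2 the medians were 14533, 11675, 9631, 17183 and 33919 FPKM in stage order, and for mt-Co3 12219, 14088, 12221, 15574 and 29628 FPKM. Mature Neuron cells had the highest medians for all 3, and each range covered the medians of the other stages.

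The ATP synthase subunit mt-Atp6, part of the proton channel, had medians of 18001 FPKM in Progenitor cells (range 8572 to 109518), 14804 in Precursor cells (12428 to 63919), 14805 at the Early Immature Neuron stage (8649 to 108131), 23851 at the Late Immature Neuron stage (10194 to 191230) and 43048 in Mature Neuron cells (9553 to 141940). Within cells D316 to D434 its medians were 25246 FPKM in the 3 Progenitor, 14804 in the 5 Precursor, 13511 in the 19 Early Immature Neuron, 17724 in the 6 Late Immature Neuron and 20949 in the 4 Mature Neuron cells. In that range Mature Neuron cells were thus not the highest.

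The gene of cytochrome b, mt-Cytb, the only mitochondrially encoded subunit of complex III, had medians of 6194 FPKM in Progenitor cells, 5803 in Precursor cells, 5275 at the Early Immature Neuron stage, 8953 at the Late Immature Neuron stage and 20001 in Mature Neuron cells, with 2510 to 77679 over all cells. Its percentage of the long mRNA sum stayed at 7.90% to 9.30% in the stage medians.

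Complex I has 7 mitochondrial subunits, which sit in its membrane arm, and their levels spread widely. The highest was mt-Nd1, with medians of 5905 FPKM in Progenitor cells, 4093 in Precursor cells, 4808 at the Early Immature Neuron stage, 7018 at the Late Immature Neuron stage and 12291 in Mature Neuron cells. The level of mt-Nd4 had medians of 3206, 2946, 2912, 5308 and 11878 FPKM and that of mt-Nd2 2346, 2531, 2717, 6069 and 9215 FPKM, in stage order. As percentages of the long mRNA sum, mt-Nd4 had medians of 4.12%, 4.71%, 4.47%, 4.79% and 6.44%, and mt-Nd2 3.42%, 3.98%, 4.15%, 4.48% and 4.92%, while mt-Nd1 had 6.95%, 6.45%, 7.28%, 6.52% and 6.08%. For mt-Nd4 the highest stage median came with the lowest and highest cells at 4.01% and 8.76%, against 3.07% and 7.42% in Progenitor cells, so the groups overlapped.

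The remaining complex I mRNAs were low. The level of mt-Nd3 had medians of 1153, 1392, 1317, 1865 and 3793 FPKM in stage order, and that of mt-Nd5 had 631, 776, 644, 1036 and 2115 FPKM. The level of mt-Nd6, the only mRNA on the minus strand, had 1615, 1333, 993, 1398 and 2715 FPKM. Its ratio to mt-Nd5, with which it shares 14 bases on the opposite strand, had medians of 2.01 in Progenitor cells, 1.30 in Precursor cells, 1.53 at the Early Immature Neuron stage, 1.59 at the Late Immature Neuron stage and 1.27 in Mature Neuron cells, with 0.431 to 5.97 over all cells. As with the tRNA genes, RNA of the 2 strands cannot be told apart there.

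The rRNAs, which form the mitochondrial ribosome and are the most abundant mitochondrial RNAs in total RNA, were low in these oligo(dT)-primed libraries. They made up a median of 0.531% of mitochondrial FPKM in Progenitor cells, 0.384% in Precursor cells, 0.357% at the Early Immature Neuron stage, 0.239% at the Late Immature Neuron stage and 0.247% in Mature Neuron cells, with 0.0339% to 2.17% over all cells. The large subunit rRNA mt-Rnr2 had medians of 811, 1053, 1255, 1030 and 3531 FPKM in stage order, and the small subunit rRNA mt-Rnr1 had 124, 422, 327, 264 and 497 FPKM. They varied more than the 12 mRNAs: the SD over cells of the log2 percentage of the long mRNA sum was 1.95 for mt-Rnr1 and 1.03 for mt-Rnr2, against 0.19 for mt-Atp6, 0.20 for mt-Co2, 0.24 for mt-Co1, 0.25 for mt-Co3, 0.71 for mt-Nd6 and 0.82 for mt-Atp8. On the same measure the tRNA genes mt-Ts1 and mt-Te had 0.92 and 1.35.

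The mRNA mt-Nd4l had values near 0. It was above 0 in 9 of 85 cells, 6 of them Mature Neuron cells, and its highest value was 7.89 FPKM in the Early Immature Neuron cell D244. The gene mt-Nd4, which is read from the same molecule, stood at 1339 to 44484 FPKM in the 85 cells. The entry is 297 bp long, and entries over 200 and up to 250 bp had a median lowest value above 0 of 3.803 FPKM. How the authors' settings assign fragments of overlapping genes is not given in the sources used here, and the value of mt-Nd4l was not read as its RNA level.

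The other overlapping pair, mt-Atp8 and mt-Atp6, comes from 1 mRNA as well, yet the ratio of their FPKM varied. It had medians of 0.612 in Progenitor cells (0.506 to 0.854), 0.643 in Precursor cells (0.574 to 1.10), 0.650 at the Early Immature Neuron stage (0.518 to 2.16), 0.724 at the Late Immature Neuron stage (0.488 to 2.67) and 1.99 in Mature Neuron cells (0.533 to 2.73). By number range the medians were 2.54 in the 6 cells D29 to D97, 0.708 in the 19 cells D168 to D205, 1.85 in the 23 cells D213 to D274 and 0.642 in the 37 cells D316 to D434. Among cells D316 to D434 the 4 Mature Neuron cells had 0.533, 0.642, 0.681 and 0.756, of which 3 lay inside the 0.518 to 0.749 of the 19 Early Immature Neuron cells and 1 just above it. The ratio thus moved with the number range, and within the range that holds every stage the values of the stages overlapped.

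This ratio decides the makeup by complex when all 13 mRNAs are summed. Complex V then made up a median of 34.7% in Progenitor cells, 33.5% in Precursor cells, 31.5% at the Early Immature Neuron stage, 37.6% at the Late Immature Neuron stage and 45.8% in Mature Neuron cells, and complex IV made up 41.8%, 42.7%, 43.0%, 36.7% and 31.2%. Complex I made up 16.01%, 16.6%, 18.2%, 17.3% and 16.4%, and complex III 7.81%, 7.79%, 6.70%, 7.80% and 6.32%. The higher complex V share of Mature Neuron cells is that of mt-Atp8, whose median level was 14172 FPKM in Progenitor cells, 8890 in Precursor cells, 9299 at the Early Immature Neuron stage, 15735 at the Late Immature Neuron stage and 78417 in Mature Neuron cells, and it was absent among the mRNAs of at least 500 bp.

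**Figure D4:**
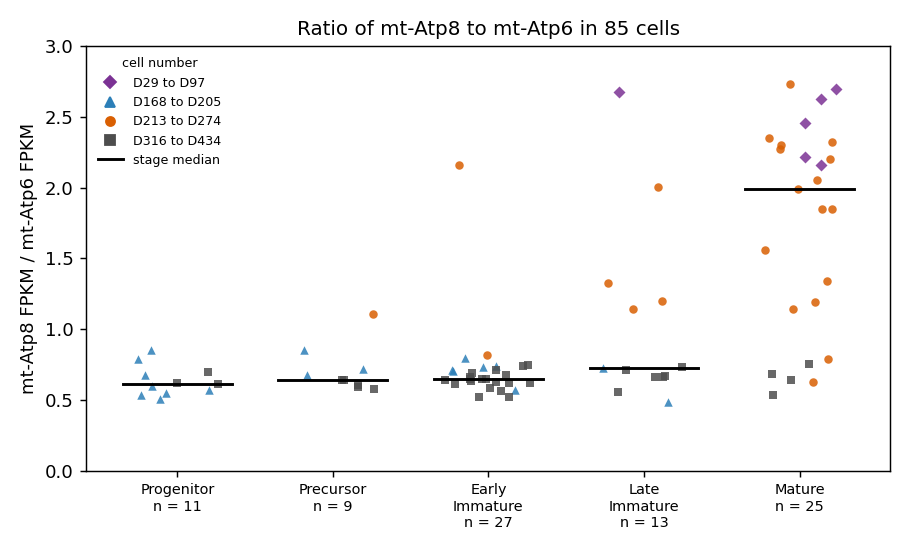
Ratio of mt-Atp8 to mt-Atp6 FPKM in each of the 85 cells by stage, with symbols for the range of cell numbers and lines at the stage medians. Cells D168 to D205 and D316 to D434 lie between 0.488 and 0.854 in every stage, and values above that come from D29 to D97 and D213 to D274.

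The 8 repeat libraries share the cell of the first library, so they show technical spread only. They cannot tell the RNA of the cell itself from RNA picked up with it. The share over entries of at least 500 bp differed between the repeat and the first library by a median of 1.62 and at most 2.65 percentage points, against a median of 8.55 points between 2 cells of a stage. In D244 it was 59.0% in the repeat and 61.6% in the first library, and in D200 15.5% and 13.9%. The tRNA share of mitochondrial FPKM differed by a median of 14.01 points, which is more than the 9.90 points between 2 cells of a stage, and in D251 it was 43.4% in the repeat and 81.01% in the first library.

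For single genes, the percentage of the long mRNA sum differed between repeat and first library by a median absolute log2 difference of 0.09 for mt-Atp6 and mt-Co2, 0.15 for mt-Co1, 0.67 for mt-Rnr1, 1.18 for mt-Ts1 and 1.67 for mt-Te. For mt-Ts1 and mt-Te this is as large as the 0.85 and 1.29 between cells of a stage or larger. The ratio of mt-Atp8 to mt-Atp6 was 0.688 in the repeat and 2.003 in the first library of D250 and 0.732 and 2.32 in those of D251, while in D230 it was 1.10 and 1.197. Among the other long mRNAs the repeat differed least for mt-Nd2, by 0.04 against 0.38 between cells of a stage. It differed more for mt-Nd5, by 0.30 against 0.55, for mt-Nd6, by 0.41 against 0.72, and for mt-Nd4, by 0.31 against 0.33. The repeat of mt-Nd4 was thus hardly closer to its first library than another cell of the stage.

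**Figure D5:**
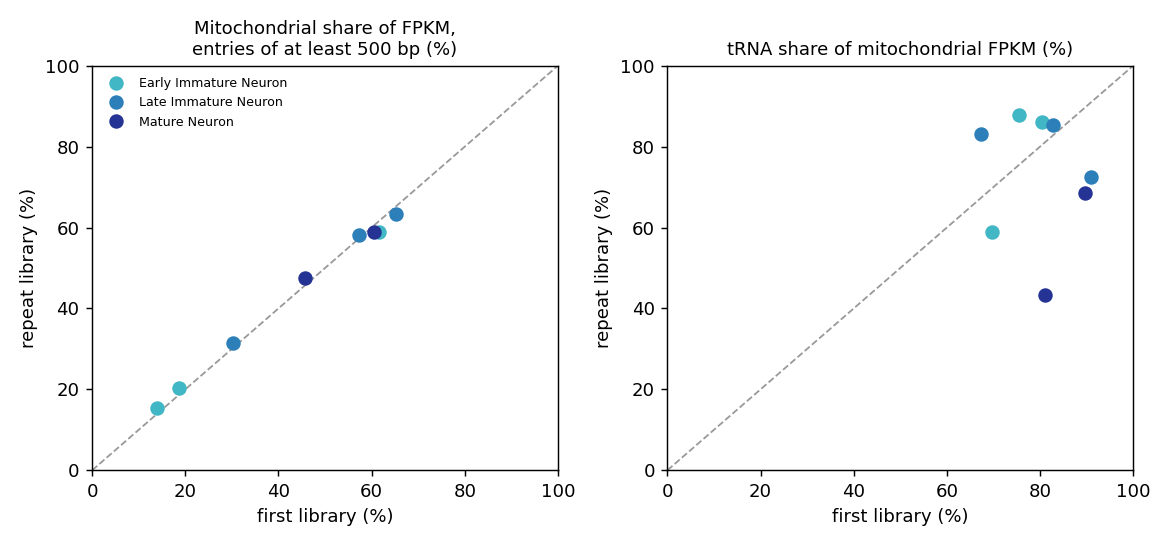
Repeat library against first library for the 8 cells with both: mitochondrial share of FPKM over entries of at least 500 bp (left, %) and tRNA share of mitochondrial FPKM (right, %), with the dashed line at equality and colours for the stage. The left points lie within 2.65 percentage points of the line, and the right points lie up to 37.6 points from it.

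Differences between stages were then compared gene by gene as the mean of log2(FPKM + 1) in the later stage minus that in the earlier one, over entries that reached 1 FPKM in 50% or more cells of the later or the earlier stage. A difference of at least 1 log2 unit is called past the threshold. A tRNA gene can pass the filter through the stage where it is seen, so the counts are read on the 12 mRNAs that pass in every stage. On this scale fold changes of low genes are understated.

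Precursor minus Progenitor, 3 of the 23 members compared were higher, where 20.1% of all entries were, and 4 were lower, where 21.6% were. All 7 of these were tRNA genes, and 0 of 12 mRNAs were past the threshold in either direction, with a median difference of -0.03. For Early Immature Neuron minus Precursor, 1 of 21 members was higher, against 22% of all entries, and 3 were lower, against 28%, again with 0 of 12 mRNAs in either direction and a median of -0.13. No mitochondrial mRNA thus differed by 1 log2 unit between neighbours among the first 3 stages.

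For Late Immature Neuron minus Early Immature Neuron, 10 of 20 members were higher, against 32.6% of all entries, and 1 was lower, against 16.1%. Of the 12 mRNAs 6 were higher and 0 lower, with a median difference of 0.99 against 0.41 over all entries. The 6 were mt-Atp8 with 1.41, mt-Nd2 with 1.16, mt-Cytb with 1.09, mt-Nd4 with 1.04, mt-Co2 with 1.02 and mt-Atp6 with 1.003. Without the Late Immature Neuron cell D230, 1 mRNA and 4 members in all were higher, so these counts rest on that cell, and without D199 of the same stage 0 members were lower. Within the cells D316 to D434, 0 of 12 mRNAs were past the threshold, where 41.6% of all entries were higher and 14.2% lower, and their median of 0.56 was below the 0.66 of all entries. Per 1000000 of all FPKM 0 mRNAs were higher, with a median of 0.48 against 0.07.

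For Mature Neuron minus Late Immature Neuron, 4 of 19 members were higher, against 4.56% of all entries, and 1 was lower, against 32.7%. Of the 12 mRNAs 1 was higher, mt-Atp8 with 1.23, and 0 were lower, with a median of 0.48 against -0.58 over all entries. Among cells D213 to D274 alone the direction was the opposite, with 0 mRNAs higher and 5 lower and a median of -0.87 over 16 Mature Neuron and 4 Late Immature Neuron cells, where 11.9% of all entries were higher and 37.6% lower with a median of -0.60. Without the Late Immature Neuron cell D250, 2 mRNAs were higher, and without D199, 4 members were lower. With all cells scaled to their non-mitochondrial FPKM, the median of the mRNAs was -0.23 against -1.096 over all entries. Scaled to all FPKM it was -0.43 against -1.17. Scaled to non-mitochondrial FPKM of entries of at least 500 bp it was 0.21 against -0.83. The sign of this median thus depended on the scale, and it stayed above that of all entries on each scale.

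Over the whole path, Mature Neuron minus Progenitor, 13 of 22 members were higher, against 25.2% of all entries, and 5 were lower, against 46.3%. Of the 12 mRNAs 9 were higher and 0 lower, with a median difference of 1.22 where that over all entries was -0.81. They ranged from 0.83 for mt-Nd1 to 2.45 for mt-Atp8, with mt-Nd3 at 1.88, mt-Nd4 at 1.69, mt-Nd2 at 1.63, mt-Nd5 at 1.32, mt-Cytb at 1.24, mt-Co2 at 1.19, mt-Atp6 at 1.16 and mt-Co1 at 1.09, and with mt-Co3 at 0.99 and mt-Nd6 at 0.90 just short of the threshold. Of the rRNAs, mt-Rnr2 differed by 1.35 and mt-Rnr1 by -0.14.

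This difference depended on the cells compared and on the scale. Among cells D316 to D434, with 4 Mature Neuron and 3 Progenitor cells, 0 of 13 mRNAs were past the threshold in either direction and their median was 0.21, where 38% of all entries were higher and 35.5% lower with a median of 0.15, with mt-Atp8 at 0.13 and mt-Nd4 highest at 0.85. Per 1000000 of non-mitochondrial FPKM, 2 of 12 mRNAs were higher, with a median of 0.41 against -1.38 over all entries. Per 1000000 of all FPKM 0 were higher, with a median of -0.32 against -1.67. Without cells with a sustentacular sum of at least 500 FPKM, 4 of 12 were higher, with a median of 0.82 against -0.94. The mRNAs thus stood above the median entry under these 3 settings, and were close to it among cells D316 to D434. No mitochondrial mRNA was lower by 1 log2 unit in any of these 4 settings.

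Nuclear genes for the same organelle, compared for Mature Neuron minus Progenitor, went several ways, beside the 25.2% of all entries that were higher and the 46.3% that were lower over all cells, and 38% and 35.5% among cells D316 to D434. Of 55 mitochondrial ribosomal protein genes compared, 2 were higher and 37 lower, with a median of -1.58, and among cells D316 to D434 16 of 64 were higher and 33 lower, with a median of -1.05. An example is Mrpl2, a protein of the large subunit, with a median of 0 FPKM in Mature Neuron and 92.1 FPKM in Progenitor cells, a difference of -4.93 over all cells and -5.33 in that range. Of 36 nuclear complex I subunits 10 were higher and 7 lower (median 0.46), and 15 and 4 in that range (median 0.59). Among them was Ndufv3 with 483 FPKM in Mature Neuron and 54.1 FPKM in Progenitor cells, a difference of 3.21.

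Of 4 complex II subunits 2 were higher and 0 lower, and 3 and 0 among cells D316 to D434. Of 9 complex III subunits 1 was higher and 3 lower, and 4 and 1 in that range. Of 12 complex IV subunits 2 were higher and 1 lower, and 6 and 1 of 11 in that range. Of 16 complex V subunits 4 were higher and 1 lower, and 5 and 2 in that range.

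The genes that copy and maintain mitochondrial DNA were rarely seen, with 2 of 14 compared and both lower, Ssbp1 with a difference of -2.48 and Peo1, the helicase Twinkle, with -2.03. In the range D316 to D434 4 were compared, 2 higher and 2 lower, and Ssbp1 differed by -0.45, short of the threshold. Of 11 genes of mitochondrial RNA processing compared, 2 were higher and 6 lower, and 2 and 5 of 9 in that range. The translation factors Tufm, C1qbp and Gfm2 had differences of -2.66, -2.28 and -2.11 over all cells and of -4.03, -1.75 and -0.71 in that range, where 1 of 6 such factors was higher and 2 lower.

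Of 3 biogenesis regulators compared, Ppargc1a, a coactivator of mitochondrial genes, was higher by 2.38, with 13 of 25 Mature Neuron and 0 of 11 Progenitor cells at or above 1 FPKM, and 0 were lower. In the same range 1 of 5 was higher and 2 were lower, with Ppargc1a at 4.19. Of 15 genes that mark the amount of mitochondria, 3 were higher and 7 lower (median -0.53), while in that range 7 of 16 were higher and 6 lower (median 0.59). The import receptors Tomm20 and Tomm22 differed by -2.74 and -2.73 over all cells, and by -1.42 and 2.12 in that range, so that Tomm22 had the opposite direction there.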

How the data were processed

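RNA of 85 single cells was sequenced, 8 of them from a repeat library as well. The authors deposited 1 table of FPKM values per library. Per the submitters' processing notes, the tools were Cufflinks 2.2.1, TopHat2 2.0.14, cutadapt 1.2.1, Trim Galore and CASAVA 1.8.2, with the mm10 build. Their settings, the treatment of strand and of multiply mapped reads, and library scaling: not given in the sources used here. Read counts are not given either, so depth was read from the steps of low FPKM values of 2290 single-exon entries of 800 to 4000 bp, within a tolerance of 5%.

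Values were summed, divided and averaged with Python 3.11.15, numpy 2.4.6 and pandas 2.3.3. Shares are of summed FPKM over all entries of a library or over entries of at least 500 bp. Stage differences are of mean log2(FPKM + 1), with a pseudocount of 1, over entries that reached 1 FPKM in 50% or more cells of the later or the earlier stage, and the calculation was tested on simulated data. No test between stages was made, since each stage counts as 1 sample.

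Every rRNA and mRNA is given for each stage. A tRNA gene is named with a level or cell count if it reached 1 FPKM in 50% or more cells of a stage or was among the highest by mean, and the remaining tRNA genes are given by their cell counts. From each nuclear list up to 3 genes with the greatest absolute difference could be named. The topic, lists and number ranges were chosen with earlier results of these data known, while the members were set by gene name alone. The GENCODE annotation of the sequences gives all 37 members the same coordinates as the deposited table.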

Additional observations from a re-analysis of the deposited data

Results flagged for a closer look

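Only the Precursor stage, with 9 cells, is of a size at which a single far cell was looked for, by the gap of the highest or lowest cell to its nearest neighbour over the whole range of the stage (critical value 0.493). Of 38 values examined 21 were past it. A gene above 0 in only 1 of the 9 cells is past it by construction, so this count cannot be set against chance. Levels of single genes make up 19 of the 21, and they share cells and are not independent.

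In 13 of the 21 the far cell was D242, the only Precursor cell of D213 to D274, with a sustentacular sum of 1486 FPKM; whether this bears on its values was not tested. Its share over entries of at least 500 bp was 52.4%, with 26.2% in the next cell. Its mRNA levels were 17617 FPKM for mt-Nd1, 16946 for mt-Nd2, 6723 for mt-Nd3, 13524 for mt-Nd4, 39408 for mt-Co1, 50271 for mt-Co2, 64250 for mt-Co3, 70569 for mt-Atp8, 63919 for mt-Atp6 and 35176 for mt-Cytb, and its tRNA levels were 9301 FPKM for mt-Ta and 6982 for mt-Td. All 10 of these mRNAs were higher in this cell than in any other Precursor cell.

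The other far cells concerned tRNA genes and 1 rRNA value. Of these tRNA genes mt-Tl1 was above 0 in 8 of 9 and mt-Tp in 6 of 9 Precursor cells, and the others in 1 to 3. In D178, levels were 57176 FPKM for mt-Tl1, 66484 for mt-Ti, 8797 for mt-Tq, 11081 for mt-Tm and 37461 for mt-Tg. In D398 they were 36597 FPKM for mt-Tt and 24398 for mt-Tp. In D319 the rRNA share of mitochondrial FPKM was 1.05%, with 0.544% in the next cell.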

How the results depend on the processing

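With FPKM multiplied by annotated length, the mitochondrial share of the total was 13.8%, 10.8%, 9.33%, 13.04% and 26.6% from Progenitor to Mature Neuron, the rRNA share 2.66%, 2.19%, 2.30%, 1.17% and 1.68%, complex I 20.1%, 20.3%, 21.7%, 21.1% and 23.2%, complex III 10.8%, 10.4%, 9.12%, 10.7% and 9.96%, complex IV 48.6%, 50.7%, 49.5%, 46.3% and 43.4%, and complex V 20.7%, 18.97%, 18.4%, 22.3% and 22.7%. This product does not approximate fragments for short entries. The lowest value above 0 had a median of 1132 FPKM over 60 to 80 bp and 0.229 FPKM over 800 to 1000 bp. That step is far steeper than the one in length, so short entries still weigh too much in these values. The share was 20.2%, 19.8%, 16.4%, 23.1% and 39.1% without entries under 200 bp, 20.2%, 19.8%, 16.5%, 23.4% and 39.1% over protein coding entries, and 18.2%, 17.7%, 14.7%, 20.6% and 31.7% over entries of at least 500 bp. Over mRNAs of at least 500 bp, complex I was 19.8% in Mature Neuron cells, complex III was 9.26% in Progenitor, 9.29% at the Late Immature Neuron stage and 9.30% in Mature Neuron cells, complex IV was 48.2%, 50.9%, 50.2%, 47.7% and 46.5%, and complex V was 25.03%, 23.3%, 22.3%, 24.3% and 23.1%. Among cells D316 to D434 alone, Mature Neuron cells had a share of all FPKM of 47.3%, with complex I at 20.2%, complex IV at 42.3% and complex V at 30.6%. By this share the middle cell there was D337 with 38.97% in Progenitor, D345 with 36.6% in Precursor and D362 with 43.05% in Early Immature Neuron cells. In Late Immature Neuron cells the middle lay between 47.6% and 55.06%. The Mature Neuron value was thus above the middle of each earlier stage except Late Immature Neuron.

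Of members past 1 log2 unit, with no filter on low values, Precursor minus Progenitor had 5 higher and 9 lower, Early Immature Neuron minus Precursor 8 lower, Late Immature Neuron minus Early Immature Neuron 17 higher and 2 lower, Mature Neuron minus Late Immature Neuron 7 higher and 7 lower, and Mature Neuron minus Progenitor 9 lower. Among cells D316 to D434 these counts were 1 higher for the first pair, 0 higher for the second, 3 higher and 0 lower for the third, 0 higher and 5 lower for the fourth and 0 higher for the last; for mRNAs alone 0 were higher in the last 3 pairs. Per 1000000 of all FPKM, members higher were 3, 0 and 2 in the last 3 pairs and mRNAs 0, 0 and 0; per 1000000 of non-mitochondrial FPKM, members higher were 0 and 5 in the last 2 pairs and mRNAs 0 and 2. Per 1000000 of non-mitochondrial FPKM of entries of at least 500 bp, and likewise without cells with a sustentacular sum of at least 500 FPKM, mRNAs higher were 2, 0 and 4. Among cells D213 to D274, mRNAs higher were 1, 3 and 0 and mRNAs lower 1 and 5 in the pairs from Early Immature Neuron minus Precursor on. These and the 500 bp settings were chosen after seeing the data.

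Leaving out 1 cell at a time, Late Immature Neuron minus Early Immature Neuron had 4 members (without D230) to 13 higher and from 0 lower (without D199), and 1 mRNA (without D230) to 8 higher; Mature Neuron minus Late Immature Neuron had up to 4 members lower (without D199) and up to 2 mRNAs higher (without D250). The other settings for shares (means over cells or over first and repeat libraries, values under 1 FPKM set to 0, no control sequences, no rRNAs, no mt-Nd6) moved no stage median past the spread over cells. Pseudocounts of 0.1 and 10 concern only the counts of members, which have no such spread. These counts were judged by their ratio to the main count, and 0 of 10 moved with either pseudocount. No paired analysis was possible because the cells carry no number that pairs stages. Where values moved with the scale or cells, the cause was not tested.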

Other observations

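The Early Immature Neuron cell D357 had the lowest mitochondrial share of all FPKM, 10.3%, with 78.8% of its FPKM on nuclear entries under 200 bp; over entries of at least 500 bp its share was 12.1%, inside the range of its stage. The median of its stage was 9.43% on such short nuclear entries. Its label was not borne out by marker genes of immature cells. Lists of 5 precursor and 6 immature neuron genes summed to 4.48 and 4.97 FPKM in D357, against stage medians of 903 and 1598 FPKM. A list of 8 mature neuron genes summed to 589 FPKM, against 410 FPKM.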
